A study of Mus musculus with 2 samples.

Results

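Of the 10 symbols chosen as the p53 family with its main regulators and targets, 8 had a value among the 19498 Ensembl mouse genes of the deposited table. These were Trp53, the regulators Mdm2 and Mdm4, and the targets Cdkn1a, Ccng1, Zmat3, Phlda3 and Sesn1. They were found by the Ensembl ID that belongs to each symbol in GENCODE M21. The family members Trp63 and Trp73 were not analysed here, since no value used here carries their IDs. The least covered gene of the table had 2 recovered reads in all.

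RNA came from the mouse breast cancer line 4T1, which metastasises in its host. The control-treated group and the treated group have 1 library each, and the treated cells received LY500307, a small molecule that activates estrogen receptor beta. Neither dose nor duration is given in the sources used here, nor what the control cells received. Per the labels' protocols, TruSeq stranded libraries were prepared from TRIzol-extracted total RNA after ribosomal RNA depletion. With 1 library per group, every difference below compares these 2 libraries and has no replicate check.

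p53, the product of Trp53, is a transcription factor that stress such as DNA damage stabilises. It binds a pair of half-sites near its targets and raises genes of cell cycle arrest, cell death, DNA repair and metabolism. Mdm2 encodes the ubiquitin ligase that marks p53 for degradation and is itself a p53 target, which closes a feedback loop. Mdm4 encodes a related protein that binds p53 and restrains its activity. The line 4T1 is widely described as lacking functional p53, and a transcript level does not show whether a protein is made.

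The sequences that p53 could read near the starts of these genes are shown first, because p53 acts on its targets through such sites. RefSeq promoter windows of 300 bases, from 250 before to 50 after an annotated start (GRCm38.p6), existed for 8 of the 10 symbols in 12 windows. The consensus p53 half-site, a 10-base pattern that reads alike on both strands, was present in 5 of these windows. It occurs in 8.36% of the 32851 mouse windows searched. A pair of half-sites with at most 13 bases between them was in 24 windows (0.0731%), one of which is the upstream window of Cdkn1a, with 12 bases between them. Capitals mark the half-sites, and the first base of the site lies 75 bases before the start in Trp53, 186 in Mdm2, 185 in Ccng1 and 173 in the second Sesn1 window. In Cdkn1a the sites begin 73 and 51 bases before the upstream start. The 10 bases directly after the second site differ from the pattern only at their first base and are left unmarked. Which half-sites form a pair in Cdkn1a thus depends on how strict the pattern is. Sequences run 5′ to 3′ on the gene's strand.
Trp53 (chr11:69580259-69580318, plus strand): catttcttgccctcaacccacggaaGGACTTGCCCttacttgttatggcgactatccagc
Mdm2 (chr10:117710910-117710969, minus strand): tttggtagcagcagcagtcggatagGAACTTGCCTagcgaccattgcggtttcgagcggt
Ccng1 (chr11:40755437-40755496, minus strand): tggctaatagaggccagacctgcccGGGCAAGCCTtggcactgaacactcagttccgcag
Sesn1 (chr10:41887241-41887300, plus strand): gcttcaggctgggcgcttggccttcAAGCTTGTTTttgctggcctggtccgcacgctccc
Cdkn1a (chr17:29090729-29091028, plus strand): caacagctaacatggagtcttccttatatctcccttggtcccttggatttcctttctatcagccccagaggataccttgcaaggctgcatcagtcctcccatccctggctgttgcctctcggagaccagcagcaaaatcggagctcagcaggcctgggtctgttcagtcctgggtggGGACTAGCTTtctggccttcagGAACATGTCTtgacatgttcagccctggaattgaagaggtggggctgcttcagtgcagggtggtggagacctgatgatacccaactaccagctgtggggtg
The windows of Mdm4, Phlda3 and Trp73, the other Sesn1 window and the other Cdkn1a window hold no match to these letters. Sites outside the 300 bases, such as within introns, and sites with a base off the pattern were not searched for. A match is a description of the sequence and not a measured binding site.

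Transcripts of p53 itself and of its best known target were slightly lower in the LY500307 library. Those of the p53 inhibitor gene Mdm4 and of cyclin G1 were slightly higher, and Mdm2 was nearly level. No member was 1.5-fold apart, where 1.8% of 11384 expressed genes were 1.5-fold higher or more and 1.97% lower by as much. Expressed genes are those whose higher deposited value reached a floor of 33.0, and all 8 members passed it. By counting error alone, the fold interval lay above 1 for 2 members and below 1 for 3. Across all expressed genes it lay above 1 for 18.1% and below 1 for 23.7%, so such an interval is common in these libraries. The median log2 ratio was 0.015 over the 8 members and −0.016 over all genes.

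Trp53 had a deposited value of 1040 in the control and 906 in the LY500307 library, from 1009 and 934 recovered reads. The deposited values behave as reads multiplied by 1 factor per library. In bulk RNA, fewer cells with a transcript and less of it per cell cannot be told apart. The LY500307 value was 0.872 of the control value, with a 95% counting interval of 0.796 to 0.954. Its log2 ratio of −0.20 stood at percentile 23.0 of all expressed genes, near the lower quartile of −0.18. Wrap53, the neighbour of Trp53 that encodes a WD40 protein of the telomerase complex, had 349 and 382 reads and a fold of 1.03 (0.889 to 1.20).

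Mdm2 had deposited values of 1118 in the control and 1132 in the LY500307 library, from 1085 and 1167 reads. The fold was 1.01 (0.932 to 1.10), and its log2 ratio stood at percentile 55.9 of all genes. Mdm4 had values of 1218 and 1443, from 1182 and 1487 reads, and was 1.18-fold higher (1.10 to 1.28), at percentile 87.9. The LY500307 library was thus the higher one for Mdm4 beyond counting error, whereas the interval of Mdm2 spans 1. Whether Mdm2 and Mdm4 differ in response was not tested, since no spread between cultures is known.

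Cdkn1a encodes p21, the inhibitor of cyclin-dependent kinases through which p53 arrests the cell cycle. It had deposited values of 511 and 434, from 496 and 447 reads, a fold of 0.849 (0.745 to 0.966). Ccng1, which encodes cyclin G1, a p53 target that takes part in the control of Mdm2 through a phosphatase, went the other way. Its values were 1025 and 1197, from 995 and 1234 reads, a fold of 1.17 (1.07 to 1.27). Both targets lay beyond counting error, on opposite sides of 1, at percentiles 18.7 and 85.9 of all genes.

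Phlda3, which encodes a PH-domain protein that competes with AKT for membrane lipids, had the lowest ratio of the members. It had values of 278 in the control and 207 in the LY500307 library, from 270 and 213 reads. That is 0.743 of the control value (0.618 to 0.892), at percentile 5.53 of all genes. Zmat3, which encodes an RNA-binding zinc finger protein, had values of 543 and 547, from 527 and 564 reads, and a fold of 1.01 (0.893 to 1.14). Sesn1, which encodes sestrin 1, a stress protein that restrains mTORC1, had values of 195 and 203, from 189 and 209 reads. Its fold was 1.04 (0.851 to 1.27), so neither Zmat3 nor Sesn1 differed beyond counting error.

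**Figure D1:**
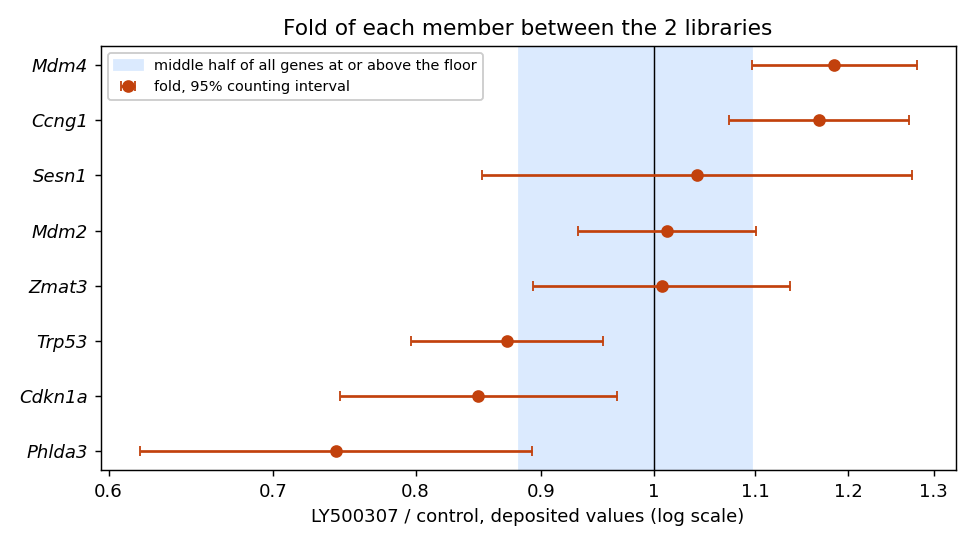
Ratio of the LY500307 to the control deposited value for the 8 members on a log axis, with 95% counting intervals as bars and the quartile range of all expressed genes as a band. The bars of Mdm4 and Ccng1 lie above 1, those of Trp53, Cdkn1a and Phlda3 below 1, and those of Sesn1, Mdm2 and Zmat3 cross it.

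Levels between genes were compared as RPKM of recovered reads, a measure per transcript length and library depth, with the longest annotated transcript as the length. In the control library the level was 23.7 for Mdm2, 21.2 for Trp53 and 19.5 for Ccng1. It was 16.4 for Cdkn1a, 12.9 for Phlda3 and 11.4 for Mdm4, and 4.65 for Zmat3 and 3.41 for Sesn1. Exact Poisson intervals of the neighbours Mdm2 and Trp53, Trp53 and Ccng1, and Phlda3 and Mdm4 overlap, and the other neighbours are apart. Among expressed genes the control levels ran from percentile 20.8 for Sesn1 to 71.9 for Mdm2. In the LY500307 library the level was 24.6 for Mdm2, 23.3 for Ccng1 and 18.9 for Trp53. It was 14.2 for Cdkn1a, 13.9 for Mdm4, 9.83 for Phlda3, 4.79 for Zmat3 and 3.63 for Sesn1. Trp53 and Ccng1 changed places in that order, as did Phlda3 and Mdm4. In the LY500307 library the intervals of Mdm2 and Ccng1 overlap, as do those of Cdkn1a and Mdm4.

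**Figure D2:**
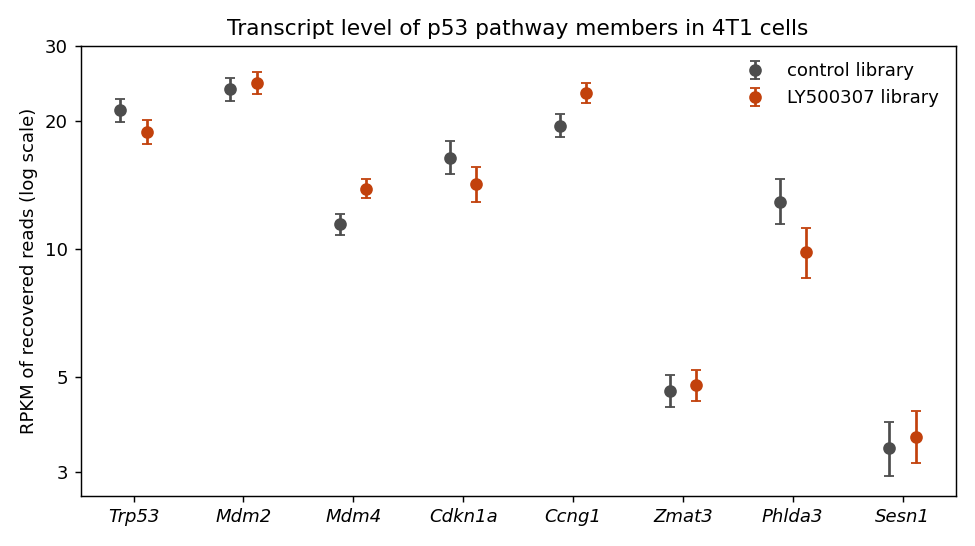
Level of each member in the control (grey) and LY500307 (orange) library, as RPKM of recovered reads on a log axis, with exact 95% Poisson intervals as bars. Mdm2 is highest in both libraries, and Zmat3 and Sesn1 lie below 5 in both.

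Around the members, 91 genes of the p53 family, its regulators and its targets were listed by role, of which 85 had a value and 76 reached the floor. Beside Trp63 and Trp73, the ARF and p16 gene Cdkn2a and the targets Pmaip1, Eda2r and Sco2 were not analysed here. Of the 76 genes, 39 had a log2 ratio above 0 and 37 below 0, against 47.2% above and 52.8% below among all genes. None was 1.5-fold higher and 2 were 1.5-fold lower, Bbc3 and Ddit4. The median was 0.0082. For the 68 of these that are not members, the counting interval lay above 1 in 13 and below 1 in 18, or 45.6%, close to the 41.8% of all genes.

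Regulators of p53 had a median log2 ratio of 0.049 over 21 genes, 15 of them above 0 and 0 of them 1.5-fold apart. Among all expressed genes 47.2% lay above 0. Once a trend in transcript GC content and length was taken out, 11 of the 21 lay above 0, with a median of 0.007. The highest was Cop1, which encodes another ubiquitin ligase of p53, with 773 and 1074 reads and a fold of 1.31 (1.19 to 1.44). The lowest was Ppp1r13l, which encodes the p53 inhibitor iASPP, with 1004 and 715 reads at 0.671 of the control value (0.608 to 0.739). Its log2 ratio of −0.58 lay just inside the 1.5-fold limit. Wrap53, with 0.23, was the highest regulator once the trend was taken out, and Ppp1r13l was no longer the lowest. Among the kinase genes that signal DNA damage to p53, Atm had a fold of 1.19 (1.07 to 1.33), Atr 1.15 (1.05 to 1.25), Chek1 1.17 (1.08 to 1.26) and Chek2 1.04 (0.884 to 1.23). With a trend in transcript GC content and length taken out, the log2 ratios of Atm, Atr and Chek1 went from 0.25, 0.20 and 0.23 to 0.060, −0.013 and 0.066, so that of Atr changed sign.

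Targets of cell cycle arrest and feedback had a median of 0.10 over 11 genes, 7 of them above 0. Btg2, an antiproliferative gene, had the highest ratio, with 41 and 63 reads and a fold of 1.45 whose interval spans 1 (0.961 to 2.20). Ppm1d, which encodes the phosphatase WIP1 that switches the p53 response off, had the lowest, with 289 and 258 reads (0.841, 0.708 to 0.998). Cell death targets had a median of −0.072 over 12 genes, with 4 above 0, and of −0.010 with 5 above 0 after that removal. Bbc3, which encodes the BH3-only protein PUMA, had the lowest ratio of all 76 genes, with 194 reads in the control and 108 in the LY500307 library. It stood at 0.524 of the control value (0.410 to 0.667), at percentile 0.281 of all genes. Bax, which encodes the pore-forming partner of the same death pathway, was at 0.831 (0.750 to 0.920), but its log2 ratio turned from −0.27 to 0.12 with the GC and length trend taken out. Apaf1, which encodes the scaffold of the apoptosome, had the highest ratio, with 485 and 583 reads and a log2 ratio of 0.18. Its log2 ratio was 0.067 with the trend taken out, no longer the highest of the group. The death receptor gene Fas lay below the floor with 15 and 30 reads, and its fold of 1.88 had an interval of 0.982 to 3.77. Trp53i11, in the same group and also below the floor, had 16 and 8 reads and stood at 0.471 (0.174 to 1.17).

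DNA repair and nucleotide targets had a median of −0.049 over 9 genes, from Xpc, the damage recognition gene, at 0.775 (0.664 to 0.905) to Rrm2b, a ribonucleotide reductase subunit gene, at 1.09 (0.967 to 1.24). Rrm2b was no longer the highest with the GC and length trend taken out. Metabolism and antioxidant targets had the lowest median of the target groups on the deposited values, −0.16 over 14 genes. Of these, 9 lay below 0, against 52.8% of all genes. With the trend taken out their median was −0.053, and that of DNA repair and nucleotide targets, −0.12, was lower. Ddit4, an inhibitor of mTORC1 that ATF4 also controls, had 1858 and 1220 reads and stood at 0.618 (0.575 to 0.665). Fdxr, which encodes ferredoxin reductase, stood at 0.688 (0.564 to 0.838), and Sesn2, a sestrin gene that ATF4 also controls, at 0.722 (0.617 to 0.843). Sesn2 and Sesn1 lay on different sides of 1, although the interval of Sesn1 spans it. Slc19a2, a thiamine transporter gene, was the highest of the group at 1.12-fold (1.02 to 1.23). Secreted and other targets had a median of 0.011 over 9 genes, with Thbs1, which encodes the matrix protein thrombospondin 1, highest at 1.33-fold (1.25 to 1.42) and the tetraspanin gene Cd82 lowest at 0.766 (0.681 to 0.860).

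Genes that p53 lowers through p21 and the DREAM repressor complex had a median of 0.054 over 12 genes, none of them 1.5-fold apart. They ran from Cdc20, an activator of the anaphase-promoting complex, at 0.882 (0.842 to 0.923) to Cenpf, a kinetochore gene, at 1.21-fold (1.15 to 1.26). With the trend taken out, the log2 ratio of Cdc20 went from −0.18 to −0.014 and that of Cenpf from 0.27 to 0.083. Neither was then an extreme of the list. Of 10 basal epithelial genes that p63 controls, 8 reached the floor and 5 of these lay below 0, against 52.8% of all genes. Once the trend was taken out, 4 of the 8 lay above 0. Krt14, a basal keratin gene, was the exception in size, with 28 and 76 reads, a fold of 2.56 (1.64 to 4.09). Its control value of 28.9 lay below the floor, so it was counted only through its LY500307 value of 73.7. That choice favours a large ratio. The Notch ligand gene Jag2 was the lowest on the deposited values, at 0.736 (0.646 to 0.838). With the trend taken out its log2 ratio went from −0.44 to −0.12, and Itgb4, an integrin gene, was lowest with −0.18.

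**Figure D3:**
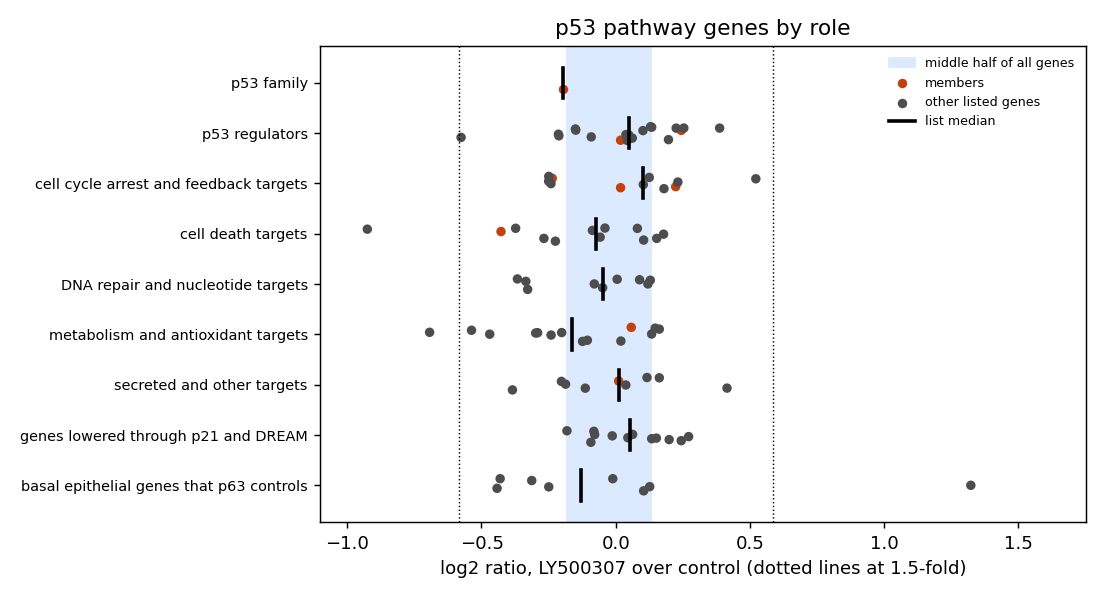
Log2 ratio of each listed gene at or above the floor, 1 row per role group, with members in orange, other genes in grey, a black bar at each group's median and dotted lines at 1.5-fold. The group medians lie between −0.20 for Trp53, the single measured family member, and 0.10 for arrest and feedback targets, and Bbc3, Ddit4 and Krt14 lie beyond the dotted lines.

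The ratios of these genes followed the GC content of their transcripts. Over the 76 pathway genes, which share both libraries and are not independent replicates, the log2 ratio and the GC content of the longest transcript had a Spearman correlation of −0.76. The correlation over 11349 nuclear genes was −0.59. The members lay along the same slope. Ccng1 and Mdm4, the members with the highest ratios, have GC contents of 40.8% and 43.3%, and Phlda3, the lowest, has 62.6%. Mdm2 has 46.2%, Zmat3 47.6%, Sesn1 49.8%, Trp53 53.3% and Cdkn1a 54.4%. Genes nearest in GC to Phlda3 had a median log2 ratio of −0.29 with quartiles at −0.41 and −0.17, and Phlda3 itself, at −0.43, lay just under the lower one. These neighbours are the 10% of genes highest in GC, and most of them have less GC than Phlda3. In the highest of 20 GC bins, with a median GC of 60.8%, the quartiles were −0.45 and −0.21, and Phlda3 lay between them. Genes nearest to Ccng1 had a median of 0.16 with quartiles at 0.055 and 0.26, and its own 0.22 lay between them. For Mdm4 the upper quartile of its GC neighbours was 0.22, just under its own 0.24. Trp53 with −0.20 lay between the quartiles of its neighbours, −0.21 and 0.0037, as did Cdkn1a with −0.24 (−0.240 and −0.015).

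**Figure D4:**
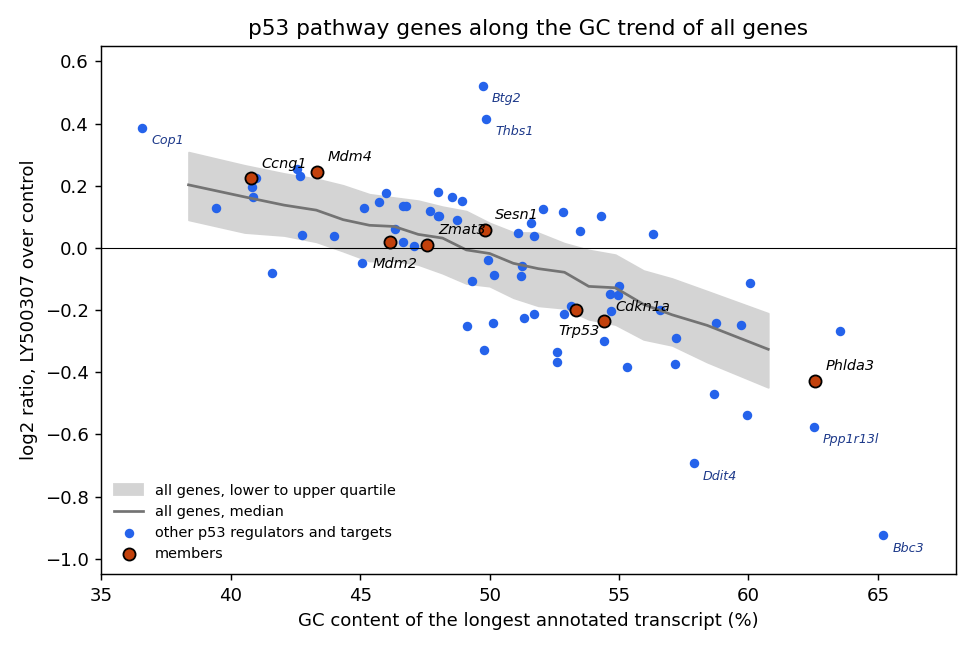
Log2 ratio against the GC content of the longest annotated transcript, with members in orange, other p53 regulators and targets in blue, and the median and quartile range of all nuclear genes at or above the floor in 20 bins of GC as a grey line and band. The members fall from Ccng1 and Mdm4 at low GC, through the band, to Phlda3 at 62.6%, beyond the last bin's median.

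With a trend in GC content and length taken out, the log2 ratios of the 8 members lay between −0.10 and 0.082. Mdm4 went from 0.24 to 0.082, Ccng1 from 0.22 to 0.065 and Phlda3 from −0.43 to −0.040. Trp53 went from −0.20 to −0.10 and Cdkn1a from −0.24 to −0.10. Mdm2 went from 0.018 to −0.047 and Zmat3 from 0.011 to −0.080, so both changed sign, within their counting intervals. Sesn1 stayed at 0.060. Of the wider list, Bbc3 went from −0.93 to −0.54, Ddit4 from −0.69 to −0.46, Ppp1r13l from −0.58 to −0.20 and Cop1 from 0.39 to 0.12. No gene of the 76 was then 1.5-fold apart. Such genes were rare throughout, with 197 higher and 117 lower among the 11384 expressed genes, so the 0 does not set the list apart. Fdxr went from −0.54 to −0.24 and Sesn2 from −0.47 to −0.23, while Rrm2b changed sign, from 0.13 to −0.065. Thbs1 changed from 0.41 to 0.39, Btg2 from 0.52 to 0.54, Ppm1d kept −0.25, and Krt14 went from 1.32 to 1.54. The part of GC content in these ratios was not tested.

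**Figure D5:**
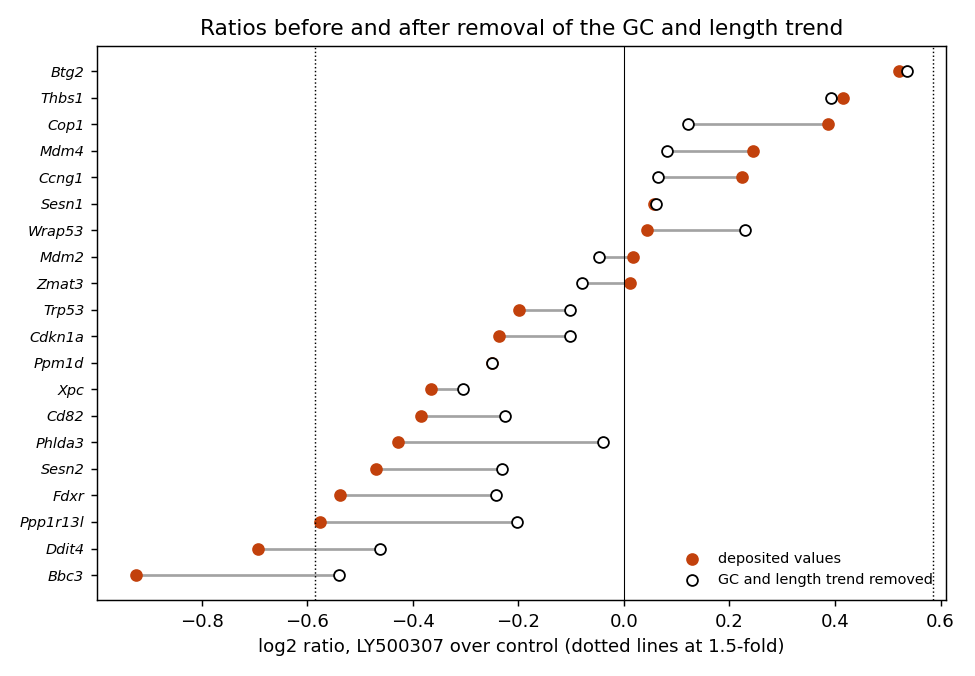
Log2 ratio of the 8 members and 12 other pathway genes on the deposited values (orange) and with the GC and length trend taken out (open circles), with dotted lines at 1.5-fold. The open circles of the members lie between −0.10 and 0.082, and those of Bbc3 and Ddit4 lie inside the lower dotted line.

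The libraries held 14541874 control and 15104003 LY500307 recovered reads. All 5 epithelial markers listed for 4T1 were measured, with 2740 and 2405 CPM in sum. Krt8 and Krt18 held most of these reads, with 17073 and 14271 of 39844 in the control. The folds were 0.797 for Krt8, 0.852 for Krt18 and 0.780 for Krt19. Epcam was near level at 0.979 (0.923 to 1.04), and Cdh1 was higher at 1.08 (1.04 to 1.12). Of 10 markers of other cell types, 8 had a value and 1, Cd68, reached the floor, with summed levels of 10.7 and 11.0 CPM. In the control and LY500307 libraries, endothelial Cdh5 had 0 and 2 reads and Pecam1 6 and 4. Leucocyte Ptprc had 2 and 4, and myeloid Lyz2 8 and 2 and Cd68 81 and 102. Of the stromal markers, Col1a1 had 28 and 24, Col1a2 29 and 27 and Pdgfrb 2 and 1. The transcripts that overlap a member in the annotation and had a value were Gm29257, opposite Mdm4, with 3 and 6 reads, and 9930024M15Rik, within Sesn1, with 4 and 2.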

How the data were processed

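The authors deposited 1 value per gene and library, a signal that behaves as reads multiplied by 1 factor per library, judged from the values since no stated method was found. CASAVA 1.8, Bowtie2 and mm9 are named, without roles, per the submitters' processing notes. The counter, its annotation and its use of strand were not found in the sources used here. Each column is a series of multiples of 1.03 (control) or 0.970 (LY500307), and 100.0% of values divided by that step lay within 0.05 of a whole number. These whole numbers are the recovered reads. The steps do not bring both libraries to quite the same total. CPM of recovered reads, which does, moved the median log2 ratio of the members from 0.015 to 0.047. No count test was run, since groups of 1 library leave no spread to estimate.

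The log2 ratio used a pseudocount of 1.03 (5th percentile of nonzero values) and understates differences of low genes. The floor of 33.0 is the 40th percentile. Folds of single genes are ratios of deposited values without a pseudocount, with exact Clopper-Pearson 95% intervals of the treated share of reads. Intervals cover counting error only, since each group has 1 library. The reads carry no molecular identifiers, so duplicate reads cannot be set apart and the intervals may be too narrow.

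Symbols, transcript lengths and GC contents came from GENCODE M21 (GRCm38), matching 19443 of 19498 IDs. The GC and length trend was a robust spline regression (5 degrees of freedom each) (Python 3.11.15, statsmodels 0.14.6). GC neighbours are the 1135 genes, 10% of those fitted, nearest in GC content. At either end of the GC range they are the lowest or highest 10%, so the gene is not at their centre. The scripts were tested on simulated data.

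Members and lists were chosen with earlier results of these data known. Named were all members, the highest and lowest of each list, genes 1.5-fold apart, Wrap53 and overlapping genes. Atm, Atr, Chek1, Chek2, Bax, Fas, Trp53i11, Itgb4, Fdxr and Sesn2 were named after their values were seen. No genes of like pattern are named, since 2 libraries give 1 ratio per gene. Alternatives were another pseudocount, floors, CPM of recovered reads, median-centring, trend removal and a 2-fold limit. Centring on GC neighbours and leaving out 3 genes that other stress factors also control were added after the data were seen.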

Additional observations from a re-analysis of the deposited data

How the results depend on the processing

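With a pseudocount of 1, CPM of recovered reads or median-centring, the log2 ratio of each of the 8 members kept its side of 0. Each also stayed within its counting interval. Such settings could hardly move the ratios, since 1 is close to 1.03, and CPM and centring shift all genes almost alike. No floor and a floor of 50 reads cannot change the ratio of a single gene. Taking out the GC and length trend, and centring on GC neighbours, each took 3 of the 8, Mdm4, Ccng1 and Phlda3, outside their intervals and changed the sign of Mdm2 and Zmat3. Of 24 other named genes, 14 with the trend out and 12 with GC-neighbour centring moved outside their intervals. Bax then turned from −0.27 to 0.12 and 0.020, and Rrm2b changed sign under both. Atr turned to −0.013 with the trend out, and Chek2 changed sign, within its interval, with GC-neighbour centring. The cause was not tested. The count of 2 pathway genes at least 1.5-fold lower became 4 without a floor and 1 with centring on GC neighbours. It became 0 with the trend removed and with a 2-fold limit. Leaving out Ddit4, Sesn2 and Bbc3 gives 0 by construction, since the 2 genes counted are Bbc3 and Ddit4. The count of 0 genes at least 1.5-fold higher became 2 without a floor and was 0 under each of the other alternatives. Under all alternatives the median of the members lay between −0.043 and 0.047, and that of the pathway list between −0.040 and 0.040. No paired analysis was possible because each group has 1 library. Depth limits Btg2, Krt14 and Fas, whose reads are few.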
